A study of Mus musculus with 8 samples.

Results

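The 45 genes described here encode proteins that drive and execute mitosis: the CDK1-cyclin engine, the spindle pole kinases, the chromosomal passenger complex, the spindle assembly checkpoint, the anaphase machinery, kinetochores, kinesin motors, spindle assembly factors, cytokinesis proteins and chromosome structure proteins. They were taken by name from the 55114 genes of the deposited table, in a list drawn up with earlier results of these data known, and all 45 were among the 16109 genes with enough reads to be tested. RNA was sequenced from whole intestinal crypts, the epithelial pits that hold the stem cells and their dividing progeny, shaken free of the tissue with EDTA. The mice were 8 weeks old and of the C57BL/6 strain. One group was 4 constitutive Mex3a knockout mice (Mex3a-/-, here KO), in which exon 1 and a stretch of exon 2 of Mex3a were removed in every tissue. The other was 4 littermate wild-type mice (Ctrl), and neither group carried a further allele or received a treatment according to the labels. Each library was 1 mouse. MEX3A is an RNA-binding protein, and the comparison asks whether its loss altered the levels of mitotic transcripts in the crypt.

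A cell enters mitosis when cyclin B accumulates and CDK1 is freed of its inhibitory phosphates. Spindle microtubules then capture each kinetochore, the checkpoint holds the cell until the last chromosome is attached, and the anaphase-promoting complex with CDC20 destroys cyclin B and securin so that the chromatids separate. Most of these genes are transcribed together in G2 and mitosis through the CHR element of their promoters, which the MuvB complex binds, first as the repressive DREAM complex and later with B-MYB and FOXM1 as an activator. In the intestine they mark dividing cells. These include the transit-amplifying progenitors, which divide quickly between the crypt base and the differentiated villus. They also include stem cells at the crypt base, most of which the paper describes as dividing rapidly. In whole-crypt RNA, fewer dividing cells and less RNA per dividing cell cannot be told apart.

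The CHR element and the CCAAT box, which NF-Y binds, were looked for in the RefSeq promoter windows of 250 bases before to 50 bases after each start (GRCm38.p6). Of the 45 genes, 37 had a window, 40 windows in all, and Aurkb, Ccna2, Cdc25c, Incenp, Kif20a, Smc4, Spc24 and Tpx2 had none. The CHR letters TTTGAA, on either strand, stood in 80.0% of the members' windows, those of 29 genes, against 17.9% of all 32851 windows. The CCAAT letters, also on either strand, stood in 80.0% against 37.4%, and both motifs in 70.0% against 6.95%. The other mitosis genes listed for comparison had the CHR letters in 32.2% of their windows, S phase genes in 10.9% and enterocyte marker genes in 4 of 16. The forkhead core GTAAACA was in 5.0% of the members' windows and 3.65% of all windows. The 42 CHR matches lay close to the start, 73.8% of them from 50 bases before to 50 bases after it, compared with 25.3% of the CHR matches in all windows. Some of the 42 were counted in each of 2 windows of 1 gene, as for Prc1, Ect2 and Bub3. A match is a description of letters, not a test of binding.

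**Figure D1:**
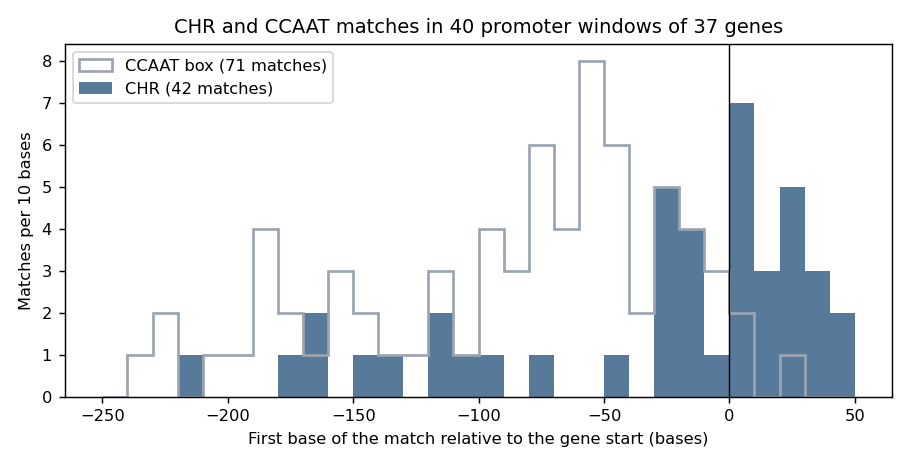
Number of CHR matches (filled bars) and CCAAT matches (outline) per 10 bases, by the distance of the first base of the match from the gene start, in 40 promoter windows of 37 mitosis genes. The CHR matches gather around the start (31 of 42 within 50 bases), with the CCAAT boxes mostly further upstream.

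The stretches of 30 bases around the CHR element are shown for 8 of the genes, because this short motif is what most of the members share. Each ends before a RefSeq start of its gene (for Prc1 the later of 2, the stretch running past the earlier one), is read 5′ to 3′ on the strand of the gene and has the CHR letters in capitals, TTTGAA where the motif lies on the gene's strand and TTCAAA where it lies on the other. The deposited gene models begin further upstream for some of them, so that only the stretches of Top2a, Ncapg and Kif11 lie wholly before the deposited start as well.
Cdk1, chr10:69352913-69352942, minus strand: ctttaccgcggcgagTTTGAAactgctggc
Cdc20, chr4:118437344-118437373, minus strand: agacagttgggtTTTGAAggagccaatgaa
Ube2c, chr2:164769888-164769917, plus strand: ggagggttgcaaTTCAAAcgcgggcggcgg
Espl1, chr15:102296254-102296283, plus strand: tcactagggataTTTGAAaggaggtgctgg
Prc1, chr7:80294434-80294463, plus strand: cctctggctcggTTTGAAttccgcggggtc
Top2a, chr11:99024195-99024224, minus strand: gctagataaaggTTCAAAtgaaactaggga
Ncapg, chr5:45669883-45669912, plus strand: ccgcgatagttgTTTGAAaactctggcgct
Kif11, chr19:37376351-37376380, plus strand: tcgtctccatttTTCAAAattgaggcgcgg

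The libraries held 20324184 to 24726221 counted reads in Ctrl and 23489180 to 30654105 in KO. Mex3a was at 13.3 ± 2.10 CPM (counts scaled to library size; SD, n = 4) in Ctrl and 0.613 ± 0.417 CPM in KO (log2 fold change -4.43 ± 0.43, SE; edgeR adjusted p = 0.031), and it was the only gene of 16109 with an adjusted p under 0.05, which is 0.00621% of them. The epithelial marker Epcam stood at 702 to 775 FPKM and the stem cell marker Olfm4 at 882 to 1501 FPKM, so the tissue matched its label. Xist, an RNA of the inactive X chromosome, was at 1672 CPM or more in replicates 3 and 4 of each genotype and at 1.85 CPM or less in replicates 1 and 2, which instead carried the Y-linked Ddx3y. The labels do not give the sex of the mice. At an unadjusted edgeR p under 0.05, 7 of 10 stem cell and 1 of 6 tuft cell markers were lower in KO (all genes: 3.05%). That threshold called 3 of 10 epithelial and 7 of 18 enterocyte markers higher (all genes: 5.33%). It also called 5 of 8 T cell, 6 of 6 ileum and 2 of 8 goblet cell markers higher. Of the Paneth cell markers 0 of 10 passed in either direction, although all 10 were below 0 with a median log2 fold change of -0.67. All 6 tuft cell markers were below 0 as well. None of these had an edgeR adjusted p under 0.05.

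The mitosis genes were abundant but spread over a wide range of levels. In FPKM (fragments scaled to the deposited gene length and library size), mean levels over the 8 mice ran from 68.0 for Cdc20 to 0.564 for Nek2. Comparisons between genes depend on that length. It exceeded the longest coding transcript for some members (Ndc80 6493 against 2201 bases, Prc1 8225 against 3026, Ncapg 7066 against 3703), which lowers their FPKM. For Mki67 the lengths matched at 10061 bases. Cdc20, the activator of the anaphase-promoting complex, was followed by Ccnb2 at 63.5, Ube2c at 59.7, Top2a at 56.0 and Mki67 at 52.6 FPKM. The single-mouse ranges of these genes overlapped: 59.2 to 78.7 FPKM for Cdc20, 55.4 to 76.5 for Ccnb2, 49.3 to 69.0 for Ube2c, 43.1 to 65.4 for Top2a and 45.3 to 61.0 for Mki67. Plk1, the polo-like kinase of mitotic entry, was the sixth at 43.7 to 52.5 FPKM. At the other end stood Ndc80, a microtubule-binding kinetochore protein, at 3.17 to 4.84 FPKM, Kif11, the motor that pushes spindle poles apart, at 0.846 to 3.47 FPKM, and Nek2, a kinase of centrosome separation, at 0.286 to 1.66 FPKM.

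**Figure D2:**
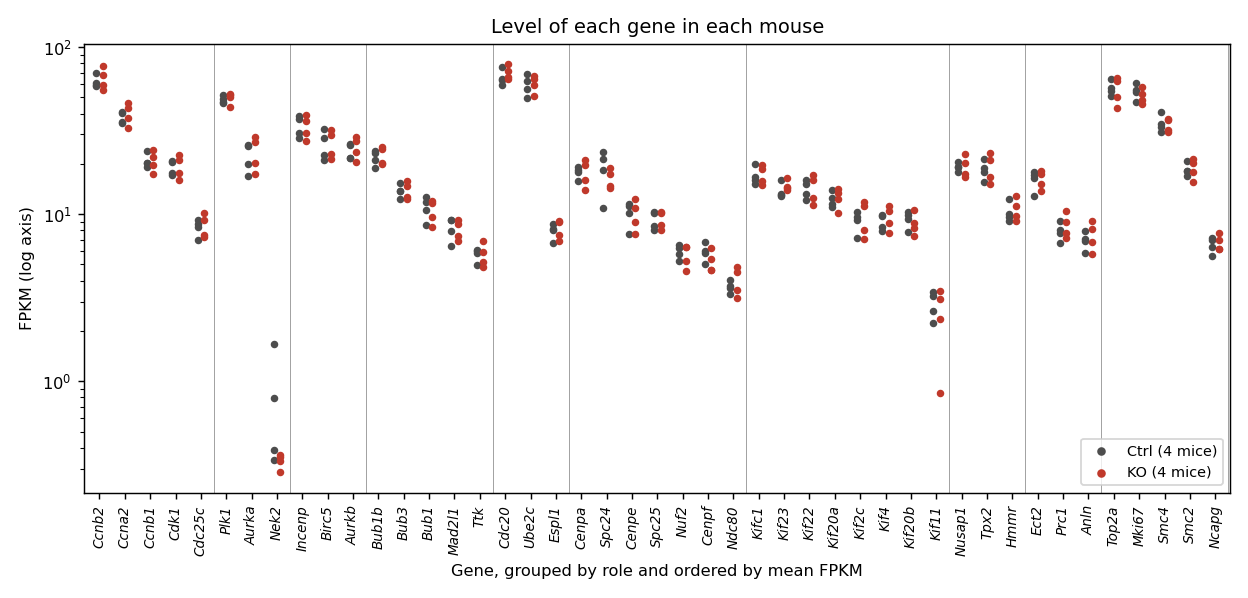
FPKM (log axis) of each of the 45 genes in each of 8 mice, grouped by role and ordered by mean within a role, Ctrl in grey and KO in red. The points of both genotypes lie over each other for all genes, and Nek2 and Kif11 stand lowest, with mean levels of 0.564 and 2.67 FPKM.

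Partners of 1 complex were not equal in FPKM. Of the chromosomal passenger complex, the scaffold Incenp was at 33.6, survivin (Birc5) at 26.2 and the kinase Aurkb at 24.5 FPKM. Ndc80 at 3.84, Nuf2 at 5.79, Spc25 at 9.26 and Spc24 at 17.4 FPKM form 1 tetramer at the kinetochore. Their FPKM kept this order in 8 of 8 mice, but each gene's length is the same divisor in every mouse. The order depends on those lengths: for Ndc80 the deposited length was 6493 bases and the longest coding transcript 2201 bases. Among the kinesins, Kifc1, the minus-end motor that focuses spindle poles, led with 17.1 FPKM, and the other 6 besides Kif11 were between 9.04 (Kif20b) and 14.3 FPKM (Kif23). Kifc1 shares 96.8% identity over 2312 bases with Kifc5b, which had 5100 counted reads against 11114 for Kifc1, so the split of reads between them is uncertain. The reads of Ccnb1 may be shared with processed copies (339 counts for Ccnb1-ps against 16781 for Ccnb1). Those of Ndc80 may be shared with 2700099C18Rik, at 95.05% identity over 303 bases (1858 counts against 4767 for Ndc80). Ccna2, Kif20a, Kif4, Ncapg and Prc1 overlap the genes Exosc9, Cdc23, Pdzd11, Lcorl and Rccd1 on the opposite strand. So do Cdc20 with Elovl1 (24279 and 16039 counts), Bub3 with Fgfr2, Plk1 with Gm44985 and Nusap1 with Oip5. The levels of all these genes, that of Cdc20 included, are uncertain to that extent, since how strand was used in the counting was not given in the sources used here.

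Between the genotypes, the mitosis genes differed very little. No member was higher in KO at an unadjusted edgeR p under 0.05 (all genes: 5.33%), and 1 of 45, Nek2, was lower (all genes: 3.05%). No member had an adjusted p under 0.05 with edgeR or DESeq2, in which Nek2 was again the only member with an unadjusted p under 0.05, and limma on FPKM gave 0 by either measure. The genotypes overlapped in all 45 genes, whereas among all genes 2.17% had their KO mice wholly above the Ctrl mice and 1.87% wholly below. The median log2 fold change was 0.011, with 25 genes above 0 and 20 below, against a median of -0.016 over all genes tested, and with upper-quartile scaling it was -0.0031. In 42 of 45 genes the estimate was smaller than its own standard error (all genes: 58.7%), and in 44 of 45 the difference of the means was smaller than the SD within a genotype (all genes: 73.1%).

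The data also bounded the size of a difference. The 95% interval of the fold change lay wholly within 1.5-fold of no difference for 42 of the 45 genes, compared with 55.5% of all genes tested. The same held for 121 of the 126 other mitosis genes tested and for 50 of 50 S phase genes, so it was not particular to the members. This bound was chosen after the data were seen. The exceptions among the 45 genes were Nek2, Kif11 and Spc24. The tightest interval was that of Plk1, from -0.14 to 0.20 on the log2 scale, and the widest that of Nek2, from -2.34 to -0.19.

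**Figure D3:**
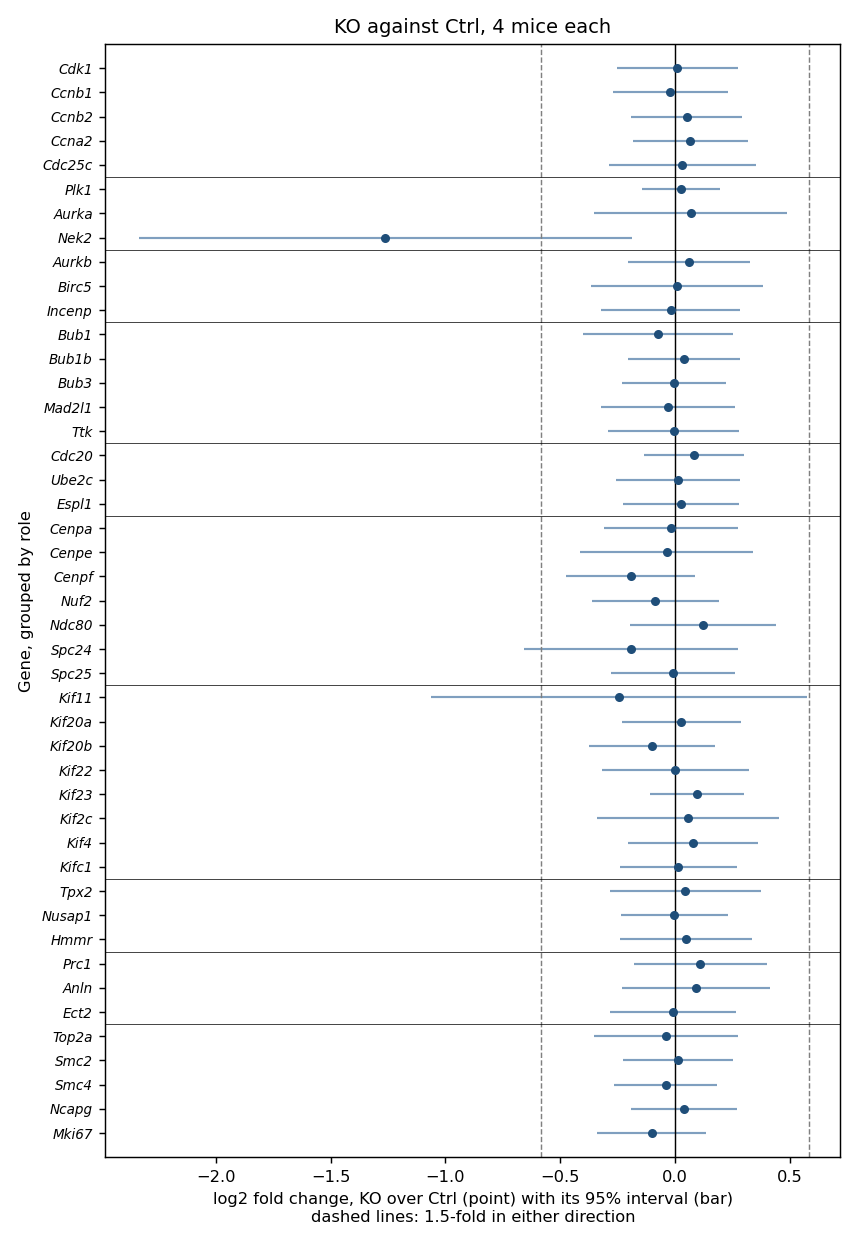
Log2 fold change of KO over Ctrl (point, 4 mice each) with its 95% interval (bar) for each of the 45 genes, grouped by role, dashed lines at 1.5-fold in either direction. Intervals cross 0 for all genes but Nek2, and 42 lie between the dashed lines.

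Among the genes of the CDK1 engine, log2 fold changes ran from -0.019 (Ccnb1) to 0.067 (Ccna2), and none passed the test. Cdk1, the kinase itself, was at 94.8 ± 8.99 CPM in Ctrl and 95.5 ± 14.7 in KO (SD, n = 4 each), a log2 fold change of 0.011 ± 0.118 (SE). Ccnb2, which encodes cyclin B2 and had the highest level of this group, was at 94.4, 90.9, 108 and 90.9 CPM in the Ctrl mice and 117, 104, 85.2 and 91.4 CPM in the KO mice. The KO mice held both the highest and the lowest value, and the fold change of 0.051 ± 0.108 was smaller than its SE. Cdc25c, the phosphatase that activates CDK1, stood at 0.033.

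The kinases of the spindle poles held Nek2, the 1 member past the unadjusted threshold, a number that is no more than the share of all genes called lower. Plk1 was at 103, 108, 113 and 104 CPM in Ctrl and 111, 113, 96.6 and 116 CPM in KO, a log2 fold change of 0.027 ± 0.075. Aurka, which promotes centrosome maturation, stood at 0.068 ± 0.186. Nek2 was at 7.62, 3.6, 1.76 and 1.55 CPM in Ctrl replicates 1 to 4 and at 1.51, 1.63, 1.30 and 1.60 CPM in KO. Both Ctrl mice with Ddx3y were well above the rest, and the other Ctrl mice lay with the KO mice, so that the genotypes overlapped (Ctrl replicate 4 was below 2 KO mice). The log2 fold change was -1.26 ± 0.48 (SE; edgeR unadjusted p = 0.026, adjusted p = 0.547; two-sided exact permutation p = 0.0857). It rested on Ctrl replicate 1: without that mouse it was -0.60, with an adjusted p of 0.756 by edgeR. Without KO replicate 1 or 3 the estimates were -1.26 and -1.20, and the unadjusted edgeR p was 0.0515 and 0.0578. Nek2 had 471 reads over all 8 mice, the fewest of the 45 genes.

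In the chromosomal passenger complex, which corrects wrong attachments and then moves to the midzone, log2 fold changes were -0.018 (Incenp), 0.0086 (Birc5) and 0.060 (Aurkb). Incenp was at 99.9, 125, 119 and 92.6 CPM in Ctrl and 117, 127, 89.0 and 99.0 CPM in KO. High and low mice occurred in both genotypes. The 5 checkpoint genes ran from -0.073 (Bub1) to 0.040 (Bub1b), and Mad2l1, Ttk and Bub3 lay between them. Bub1b, which encodes the checkpoint protein BUBR1, was at 91.3, 99.7, 103 and 81.4 CPM in Ctrl and 106, 108, 86.5 and 85.3 CPM in KO, again with broad overlap.

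The 3 genes of anaphase and mitotic exit were all slightly above 0: Cdc20 at 0.083 ± 0.097, Espl1, the separase that cuts cohesin, at 0.028 ± 0.112, and Ube2c, the ubiquitin-conjugating enzyme of the anaphase-promoting complex, at 0.013 ± 0.120. None passed the test. Cdc20 was at 112, 121, 143 and 120 CPM in Ctrl and 147, 134, 121 and 124 CPM in KO. The range of either genotype spanned most of the other.

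Of the 7 centromere and kinetochore genes, 6 were below 0 and none passed the test. Ndc80 had the highest log2 fold change of all 45 genes, 0.12 ± 0.14, from 23.8, 26.3, 24.1 and 21.8 CPM in Ctrl and 29.1, 31.5, 20.7 and 23.0 CPM in KO. Both KO mice with Ddx3y were above all Ctrl mice, and KO replicate 3 was below them all. The other members of its complex did not share this value: Nuf2 stood at -0.085 ± 0.123, Spc25 at -0.0074 ± 0.120 and Spc24 at -0.19 ± 0.21. Spc24 was at 28.6, 55.0, 60.9 and 47.7 CPM in Ctrl and 36.7, 44.7, 38.1 and 48.6 CPM in KO. The lowest value was that of Ctrl replicate 1, and leaving out this mouse gave a log2 fold change of -0.38, with an adjusted p of 0.707 by edgeR. Cenpa, the histone variant that marks centromeres, was at 114, 108, 106 and 92.8 CPM in Ctrl and 116, 123, 82.2 and 93.6 CPM in KO (-0.017 ± 0.13). Cenpf, a large kinetochore protein of late G2, stood at -0.19 ± 0.12.

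The 8 kinesin genes ran from -0.24 (Kif11) to 0.096 (Kif23), and none passed the test. Kif11 was at 10.9, 15.8, 12.7 and 16.6 CPM in Ctrl and 15.1, 11.4, 16.8 and 4.09 CPM in KO. KO replicate 4 alone was low; without it the log2 fold change of -0.24 ± 0.36 became 0.043. Kif23, a subunit of centralspindlin, was at 106, 104, 128 and 102 CPM in Ctrl and 113, 131, 111 and 114 CPM in KO (0.096 ± 0.092). Each genotype had 1 mouse well above its other 3. Kifc1 was at 55.4, 57.7, 68.0 and 52.2 CPM in Ctrl and 67.3, 63.4, 51.1 and 54.0 CPM in KO, a log2 fold change of 0.016 ± 0.112.

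The spindle assembly factors Tpx2, Nusap1 and Hmmr had log2 fold changes of 0.045, -0.0019 and 0.048. Nusap1, which bundles microtubules near chromosomes, was at 79.1, 78.8, 83.5 and 73.7 CPM in Ctrl and 82.2, 93.6, 67.9 and 71.0 CPM in KO, so that the Ctrl mice lay inside the KO range. For cytokinesis, Prc1, which bundles the central spindle, was at 64.2, 66.6, 75.1 and 56.1 CPM in Ctrl and 74.1, 85.7, 64.0 and 59.0 CPM in KO (0.11 ± 0.13). Anln, an actin-binding scaffold of the contractile ring, stood at 0.091 ± 0.144. Ect2, the activator of RhoA at the cleavage furrow, was at 93.7, 88.8, 96.8 and 70.0 CPM in Ctrl and 97.8, 93.4, 74.3 and 82.1 CPM in KO (-0.0070 ± 0.122). Neither cytokinesis nor spindle assembly held a gene with an unadjusted p under 0.05.

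Among chromosome structure genes, Top2a, the topoisomerase that untangles sister chromatids, was at 499, 513, 581 and 464 CPM in Ctrl and 566, 591, 390 and 455 CPM in KO (-0.039 ± 0.139). KO replicates 1 and 2 were above 3 Ctrl mice or more, and KO replicates 3 and 4 were below all 4. Mki67, the proliferation marker that coats mitotic chromosomes, was at 552, 557, 616 and 476 CPM in Ctrl and 526, 578, 458 and 489 CPM in KO. The log2 fold change of Mki67 was -0.10 ± 0.11 (edgeR adjusted p = 0.838), with a 95% interval from -0.34 to 0.14. The condensin genes Smc2, Smc4 and Ncapg stood at 0.013, -0.039 and 0.041.

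The mice differed from each other far more than the genotypes did, and most of the 45 genes moved together. KO replicate 3 had the lowest CPM of the 8 mice in 28 of the 45 genes and Ctrl replicate 4 in 9. KO replicate 2 had the highest in 22 genes and KO replicate 1 in 9. The mean rank over the genes (1 lowest, 8 highest) was 6.98 for KO replicate 2, 6.22 for Ctrl replicate 3, 6.18 for KO replicate 1, 5.29 for Ctrl replicate 2, 4.16 for Ctrl replicate 1, 3.27 for KO replicate 4, 2.24 for Ctrl replicate 4 and 1.67 for KO replicate 3. Either genotype thus held mice at both ends. The share of a library's reads that fell on the 45 genes ran from 0.345% in KO replicate 3 to 0.507% in KO replicate 2, and from 0.367% to 0.478% within Ctrl. The median SD of log2 CPM within a genotype was 0.195 for the members (0.0938 to 0.738) and 0.219 for all genes tested. Nek2, Spc24 and Kif11 departed from the shared order: Kif11 was highest in KO replicate 3, where 28 of the genes were lowest.

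**Figure D4:**
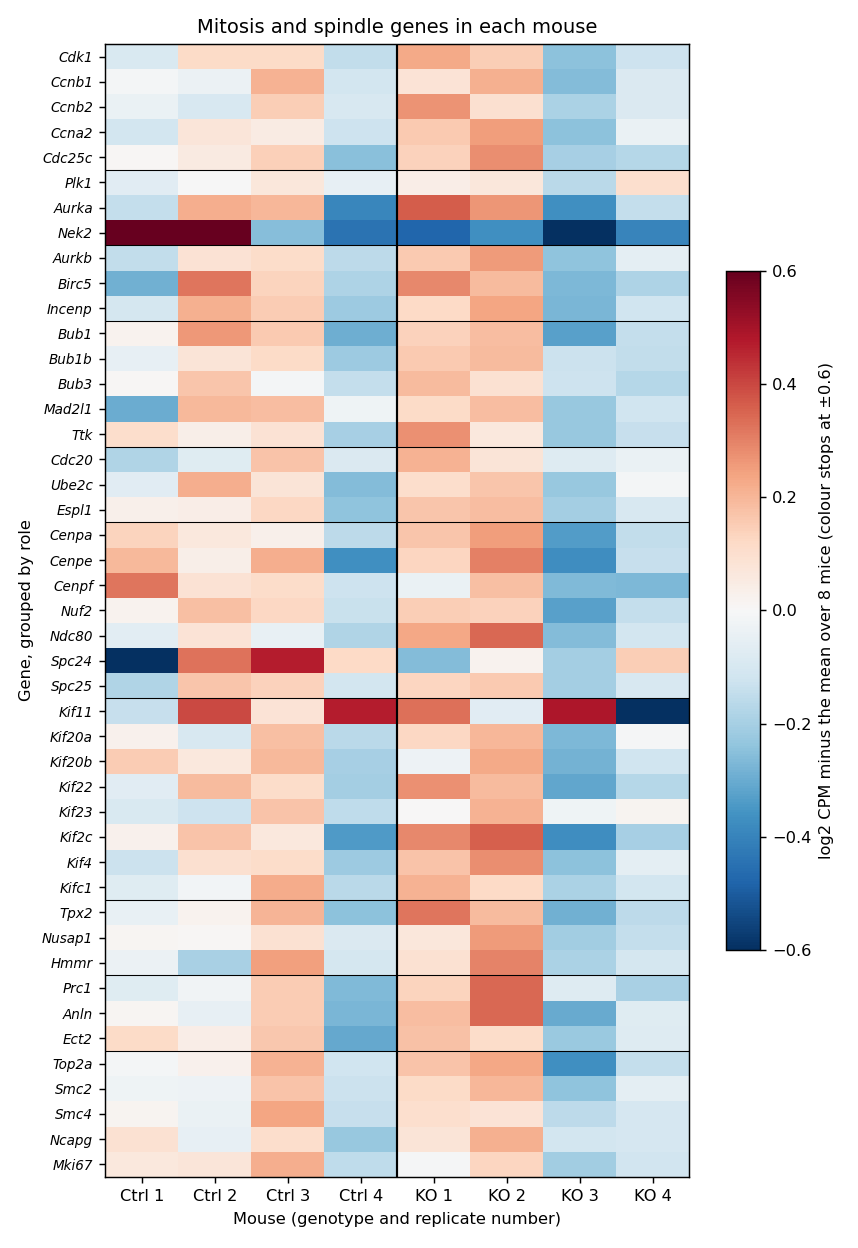
Log2 CPM of each gene in each mouse minus its mean over 8 mice, as colour from blue (lower) to red (higher), stopping at 0.6 in either direction, rows grouped by role, Ctrl mice left of the line and KO mice right of it. Whole columns share a colour: KO replicates 1 and 2 and Ctrl replicate 3 are mostly red, KO replicates 3 and 4 and Ctrl replicate 4 mostly blue, and Nek2, Spc24 and Kif11 break the pattern.

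Markers of the differentiated enterocyte stood highest in the same 3 mice in which the mitosis genes ranked lowest. The summed FPKM of the 18 enterocyte markers was 1301, 957, 1519 and 2862 in Ctrl replicates 1 to 4 and 1443, 1955, 6280 and 3648 in KO replicates 1 to 4. No enterocyte marker was at 0 in any mouse. The 8 T cell markers that were tested summed to 8.38 to 34.5 FPKM in Ctrl and 19.1 to 73.4 FPKM in KO. KO replicates 3 and 4 and Ctrl replicate 4 were again highest, and none of these markers was at 0. The part of these cells in the order of the mice was not tested. The stem cell markers followed another order, with sums of 1535 to 1787 FPKM in Ctrl and 1150 to 1441 FPKM in KO, so that all Ctrl mice were above all KO mice. Olfm4 alone, at 882 to 1501 FPKM, made up most of each sum. Of the 10 markers, 2 were lower in KO without overlap (all genes: 1.87%). The mitosis genes themselves summed to 862, 943, 1006 and 808 FPKM in Ctrl and 1008, 1022, 777 and 853 FPKM in KO, and these sums overlapped.

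**Figure D5:**
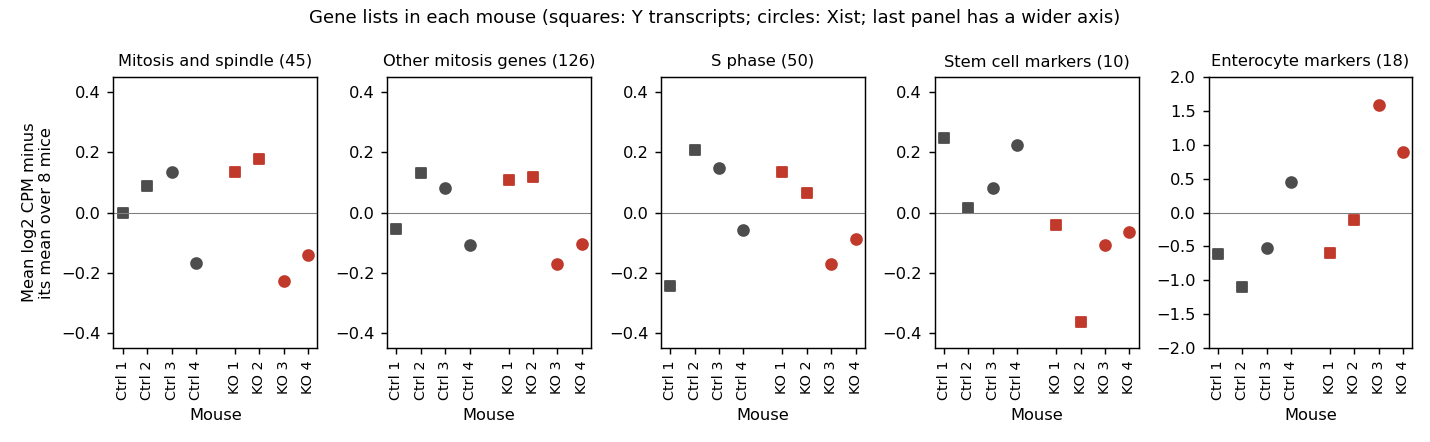
Mean log2 CPM of 5 gene lists in each mouse minus its mean over 8 mice, Ctrl in grey and KO in red, squares for mice with Y transcripts and circles for mice with Xist, the enterocyte panel on a wider axis. The mitosis genes and the other mitosis genes span both sides of 0 in both genotypes, while all 4 KO mice lie below 0 for the stem cell markers.

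Averaged over 2 mice each, the KO difference had opposite signs in the mice with Y transcripts and in those with Xist. This split was added after the data were seen, leaves 2 mice per genotype on either side, and coincides with replicates 1 and 2 against 3 and 4, so that what these transcripts mark and what the replicate numbers mark cannot be told apart. Among the mice with Y transcripts, KO exceeded Ctrl in 39 of the 45 genes (median log2 difference 0.17; all genes: 7595 of 16109), and 26 were higher without overlap (all genes: 14.7%). Among the mice with Xist, KO was below Ctrl in 45 of 45 (median -0.17; all genes: 8246 of 16109), and 6 were lower without overlap, namely Mad2l1, Birc5, Cenpf, Nuf2, Top2a and Nusap1 (all genes: 23.5%). The labels do not pair the mice, and the next values take same-numbered mice as pairs. Set against the Ctrl mouse of the same number, KO was above Ctrl in 39 of the 45 genes for replicate 1, 34 for replicate 2, 1 for replicate 3 and 37 for replicate 4, with median log2 differences of 0.18, 0.14, -0.38 and 0.069. By this pairing the sign differed between the pairs of Xist mice, and 3 of the 4 pairs had KO above Ctrl in most genes. That result depends on the assumed pairing. The members' mean log2 deviation was 0.14 in Ctrl replicate 3, -0.17 in Ctrl replicate 4, -0.23 in KO replicate 3 and -0.14 in KO replicate 4. With the Xist mates exchanged, KO would lie below Ctrl in both Xist pairs on this mean. The 45 genes share the order of the mice described above, so they are not 45 separate observations. The genes that did both without overlap were Top2a and Nusap1 (all genes: 2.02%).

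The difference between these sides was itself tested with an interaction term in edgeR. The term was negative in 44 of the 45 genes (all genes: 7570 of 16109), with a median of -0.33 on the log2 scale. At an unadjusted p under 0.05, 4 genes were relatively lower in KO among Xist mice (all genes: 1.71%): Hmmr at -0.53 ± 0.19, Top2a at -0.50 ± 0.20, Ccnb2 at -0.42 ± 0.16 and Cdc20 at -0.38 ± 0.16 (SE). Nek2 alone was relatively higher, at 1.65 ± 0.56 (all genes: 2.11%). No member reached an adjusted p under 0.05, the smallest being 0.974, and neither did any of the 16109 genes. Enterocyte markers were also highest in the KO mice with Xist, KO replicates 3 and 4, and their part in the difference was not tested. The other mitosis genes had medians of 0.067 and -0.12 in the Y and Xist mice, and the interaction was negative in 105 of 126. The S phase genes had medians of 0.095 and -0.17, the interaction was negative in 49 of 50, 4 of the 50 were higher in KO without overlap among the Y mice (all genes: 14.7%), and 28 were lower without overlap among the Xist mice (all genes: 23.5%).

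The wider cell cycle programme was looked at through companion lists of other mitosis, S phase and G1 genes. Of the 126 other mitosis genes that were tested, 0 were higher in KO (all genes: 5.33%) and 4 lower (all genes: 3.05%) at an unadjusted edgeR p under 0.05, a share near that of all genes, with a median log2 fold change of -0.014. The 4 were Wee1, the kinase that holds CDK1 inactive (62.6 ± 4.05 CPM in Ctrl, 52.8 ± 4.80 in KO; -0.24 ± 0.08), Hjurp, the chaperone of Cenpa (449 ± 68.3 and 349 ± 48.9 CPM; -0.36 ± 0.13), the cohesin regulator Pds5b (62.5 ± 4.14 and 52.5 ± 4.88 CPM; -0.25 ± 0.08) and the centrosomal Nedd1 (30.5 ± 1.58 and 26.9 ± 0.671 CPM; -0.18 ± 0.08). Wee1 and Nedd1 did not overlap between genotypes, 2 of 126 genes, which is no more than the share of all genes wholly lower in KO (1.87%). In the paired fit with the replicate block, Nedd1 was no longer past the threshold (edgeR unadjusted p = 0.0657). The activators of the CHR programme stood at 0.091 ± 0.106 (Foxm1), 0.092 ± 0.145 (Mybl2, encoding B-MYB) and 0.081 ± 0.142 (Lin9, a MuvB subunit), and none passed the test. Of 50 S phase genes, 0 were higher (all genes: 5.33%) and 1, the clamp loader subunit Rfc1, was lower (all genes: 3.05%), at -0.14 ± 0.06, with a median of -0.025. Rfc1 was likewise not past the threshold with the replicate block (edgeR unadjusted p = 0.0666).

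Of the 24 tested genes of the G1 list, 3 were higher (all genes: 5.33%) and 1 lower (all genes: 3.05%) at an unadjusted edgeR p under 0.05, with a median log2 fold change of -0.015 over the list. Cdkn1a, which encodes the CDK inhibitor p21, was at 65.4, 52.7, 58.9 and 76.7 CPM in Ctrl and 90.2, 89.8, 111 and 135 CPM in KO. Every KO mouse was above every Ctrl mouse, and the log2 fold change was 0.75 ± 0.16 with an adjusted p of 0.429 by edgeR. Cdkn2b, encoding the inhibitor p15, stood at 0.64 ± 0.17, the retinoblastoma gene Rb1 at 0.27 ± 0.11 and the repressor E2f6 at -0.26 ± 0.09, all with overlapping genotypes. Cyclin D1 (Ccnd1) was at -0.028 ± 0.123 and E2f3 at -0.041 ± 0.106. No companion gene had an edgeR adjusted p under 0.05, while DESeq2 gave Cdkn1a an adjusted p of 0.00462.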

How the data were processed

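For each of 8 mice the authors deposited unnormalized counts of reads by gene. They also deposited FPKM values, which divide the counts by the deposited gene length and a library size that departed from the total count by a factor of 0.951 to 1.04 per mouse. Group means of a signal made from counts divided by size factors, the log2 fold changes and the p-values of the authors' own comparison, deposited beside these, were not used. The submitters' processing notes name HISAT2 2.0.5, featureCounts 1.5.0-p3 and CASAVA, without their roles. The genome build was not given in the sources used here; gene coordinates in the deposited table match GRCm38.

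Counts were fitted across all genes with edgeR 4.0.16 in R 4.3.3 (filterByExpr with a minimum count of 10, TMM, quasi-likelihood test, all 8 mice, genotype as the only term) and p-values were adjusted over 16109 genes after Benjamini and Hochberg, called at 0.05. DESeq2 1.42.0, limma 3.58.1 on log2 FPKM, other scalings and filters, a replicate block, Xist/Y group as a covariate and the omission of each mouse were alternatives. For single genes, an exact permutation test (two-sided, 70 assignments) was added, with a smallest possible p of 0.0286. Whether mice came from separate litters was not given in the sources used here, and p-values measure the spread between these mice.

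The genes and lists were chosen with earlier results of these data known. Values in every mouse are given for members with an unadjusted p under 0.05, the 3 largest and 3 smallest log2 fold changes, the highest mean FPKM of each role, and Mki67; companion genes are named where their unadjusted p was under 0.05, at most 5 per list. Cdk1, Aurka, Cenpf, the activators of the CHR programme, Ccnd1 and E2f3 were named beside these. Same-numbered mice of both genotypes deviated together (r = 0.129, 0.501, 0.141 and 0.294 over all genes for replicates 1 to 4, and 0.0873 and 0.0921 for replicates 1 and 3 over autosomal genes), so the numbers were taken to pair the mice, from this check and not from the labels. Mice of different numbers were not compared in this check, and same-numbered mice also share Xist or Y transcripts, so the pairing is an assumption. The values reported come from the fit without the pairing, and the replicate block was its paired alternative. Tests were run on simulated counts first. Near-identical copies were sought at 95% identity over at least 200 bases. Python 3.11.15 and matplotlib 3.10.9 served for promoters and figures.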

Additional observations from a re-analysis of the deposited data

Results flagged for a closer look

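Of 108 groups of 4 mice examined for a mouse far from its group, 3 had one, where chance alone would give about 5.4. Kif23 was at 128 CPM in Ctrl replicate 3, with the other Ctrl mice at 102 to 106 CPM, and at 131 CPM in KO replicate 2, with the other KO mice at 111 to 114 CPM. Wee1, the kinase that restrains CDK1, was at 68.6 CPM in Ctrl replicate 1 and at 60.0 to 61.2 CPM in the other Ctrl mice.

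Values are given for 6 members whose KO difference in mice with Xist was set against that in mice with Y transcripts, although none passed the correction and the term was negative in 44 of all 45 members. On the log2 scale, the KO difference in Xist mice minus that in Y mice was -0.50 for Top2a, -0.38 for Cdc20, -0.42 for Ccnb2, -0.53 for Hmmr and 1.65 for Nek2, each with an unadjusted edgeR p under 0.05, and -0.33 for Nusap1, whose mice moved in opposite ways without overlap. These values rest on 2 mice per genotype on either side. With same-numbered mice taken as pairs, KO was above Ctrl in 1 of 45 members for replicate 3 and in 37 for replicate 4. The labels do not give this pairing. The smallest adjusted p of these tests was 0.974 by edgeR. For Nek2 the KO difference was -1.83 among mice with Y transcripts and -0.18 among mice with Xist.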

How the results depend on the processing

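Under all 19 alternatives, 0 of the 45 mitosis genes had an adjusted p under 0.05 and 0 had an unadjusted p under 0.05 with KO above Ctrl. The count of members lower was 0 with limma on log2(FPKM + 1), with and without a filter, and on log2(FPKM + 0.1), and ran from 0 to 2 with a mouse left out: 0 without KO replicate 1 or 3, Spc24 in place of Nek2 without Ctrl replicate 1, and Cenpf with Nek2 without KO replicate 2. Members without overlap ran from 0 to 1 (Kif23 without Ctrl replicate 3, Nek2 without Ctrl replicate 4). The members' median log2 fold change moved from -0.052 without KO replicate 1 to 0.083 without KO replicate 3. In the paired fit with the replicate block, 1 member, Nek2, was lower and the median was 0.0085, so the block changed no call among the members. Among the companion genes the block left Rfc1 and Nedd1 without an unadjusted p under 0.05, as did the fit without a filter, and Rfc1 kept its call in 9 of 19 alternatives and Nedd1 in 11. Hjurp lost it without Ctrl replicate 1 or 3 or KO replicate 3 or 4, Rb1 without Ctrl replicate 1 or 2 or KO replicate 3 or 4, and E2f6 without KO replicate 4. With Xist/Y group as a covariate the median was -0.00054. Over all genes, adjusted p-values under 0.05 numbered 1 with edgeR, 93 with DESeq2, 4 with the Xist/Y covariate, 0 with the replicate block and 0 to 4 with a mouse left out; unadjusted ones were 859 higher and 491 lower, 1312 and 699 without a filter, and 491 to 1305 and 355 to 828 with a mouse left out.

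Of 323 alternative values for single members, 280 kept direction and call and 36 changed sign. Nusap1 turned to 0.0032 with DESeq2, 0.0031 with RLE factors, 0.0063 without a filter and 0.0015 with at least 10 counts in every mouse. Ect2 turned to 0.0014 without a filter, 0.0036 with limma on log2(FPKM + 1), filtered or not, and 0.0040 on log2(FPKM + 0.1). With 1 mouse left out, ranges spanned 0 for Kif11 (-0.46 to 0.043), Ccnb2 (-0.038 to 0.12), Cenpa (-0.11 to 0.079), Incenp (-0.10 to 0.064), Top2a (-0.12 to 0.063), Ect2 (-0.10 to 0.061), Kifc1 (-0.054 to 0.10), Bub1b (-0.023 to 0.094), Nusap1 (-0.092 to 0.062) and Plk1 (-0.0026 to 0.081). Nek2 ran from -1.52 to -0.60 with 1 mouse left out and was -0.37 with limma on log2(FPKM + 1). The cause of these changes was not tested. Nek2 had 30 to 165 reads per mouse.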
